A study of Homo sapiens with 12 samples.

Results

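The mRNAs of the proteasome were described across AC16 cells and the exosomes these cells released. Members were the genes in the deposited mRNA count tables whose symbol begins with PSMA, PSMB, PSMC, PSMD, PSME, PSMF or PSMG followed by a digit. This rule found 49 of the 15414 genes listed in any library, 49 of 15381 in cells and 48 of 11973 in exosomes. Of the 49, 47 encode subunits, regulators or assembly factors of the proteasome. The other 2, PSMC3IP (a meiotic recombination factor) and PSME3IP1 (a protein that binds PSME3), meet the rule by name only.

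Proteins marked with ubiquitin chains are unfolded and cut up by the proteasome, a protease complex in the cytosol and nucleus of nearly all cells. Its 20S core is a stack of rings of alpha and beta subunits, and some of the beta subunits carry the cutting sites. The 19S cap recognises ubiquitin and feeds the substrate in with a ring of ATPases, while other activators open the core without ATP. In heart muscle, where proteins are renewed through life, the complex clears damaged sarcomere proteins.

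AC16 is an established human cell line that arose from the fusion of ventricular cardiomyocytes with fibroblasts. Exosomes are small vesicles that cells secrete. The 12 libraries form 4 groups of 3: exosomes labelled Ang, exosomes labelled Con, cells labelled Ang and cells labelled Con. The series' design text speaks of hypertrophic cardiomyocytes, but the labels do not spell out Ang or Con. RNA of the exosomes was taken with an exoRNeasy Maxi kit and built into libraries with a SMARTer Stranded Total RNA kit, whereas RNA of the cells was taken with a miRNeasy Micro kit and a VAHTS Universal V6 kit was used. Compartment and kit therefore cannot be told apart in any library. No label states whether the 3 libraries in a group were separate cultures. The p-values hence reflect the spread among libraries alone, and that spread may be technical.

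Exosome libraries labelled Ang held 535442 to 587783 gene reads and those labelled Con 717263 to 745311, and cell libraries held 9202471 to 11212674. Libraries of a group differed by more than sampling noise. Of 10 cardiomyocyte markers, 7 had reads in cells, with a summed level of 9.25 to 10.1 CPM (read counts scaled to a common library size) in Ang and 8.45 to 9.28 in Con. MYH6, MYL7 and MYL2 were not listed there. All 8 fibroblast markers had reads in cells, summing to 6053 to 7171 CPM in Ang and 6967 to 7441 in Con. Single-library losses were common in exosomes: among genes whose median was 40 reads or more, 381 of 3454 (11.0%) had some library lying over 4-fold under that median, against 298 of 11570 in cells (2.58%).

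The stretches before the start sites of 3 members are shown because these members differed between exosomes and cells and hold matches to the core of the antioxidant response element (ARE), which factors of the NFE2L family recognise in promoters of proteasome genes. PSMD9 and PSMD12 were higher in exosomes and PSME1 was lower. Each runs 5′ to 3′ on the gene's strand and is taken from RefSeq on GRCh38.p14, less any base inside a GENCODE release 29 exon. Capitals mark matches to TGACNNNGC on either strand. PSMD9 is at chr12:121888540-121888730 (plus strand), PSMD12 at chr17:67366628-67366827 (minus strand) and PSME1 at chr14:24135944-24136157 (plus strand).
PSMD9: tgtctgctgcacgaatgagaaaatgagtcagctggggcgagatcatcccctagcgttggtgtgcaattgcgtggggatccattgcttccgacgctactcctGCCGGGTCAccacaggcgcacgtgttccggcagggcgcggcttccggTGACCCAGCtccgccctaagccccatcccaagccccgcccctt
PSMD12: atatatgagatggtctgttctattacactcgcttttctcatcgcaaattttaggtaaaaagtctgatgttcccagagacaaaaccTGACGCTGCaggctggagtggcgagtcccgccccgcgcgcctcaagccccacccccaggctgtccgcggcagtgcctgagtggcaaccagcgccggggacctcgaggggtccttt
PSME1: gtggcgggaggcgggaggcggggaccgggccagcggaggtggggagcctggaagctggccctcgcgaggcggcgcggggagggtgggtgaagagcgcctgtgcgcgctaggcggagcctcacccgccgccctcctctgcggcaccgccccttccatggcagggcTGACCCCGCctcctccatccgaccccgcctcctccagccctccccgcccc
Over the 250 bases before RefSeq start sites, the letters TGACNNNGC were found on either strand for 13 of the 43 members with an entry (30.2%), beside 13.2% of all 27305 genes. Counted per promoter, 13 of 54 member promoters (24.1%) held them, beside 10.9% of all 35116. The CCAAT box, the letters CCAAT on either strand, was found for 21 of the 43 members (48.8%), beside 37.0% of all genes. Matches of the 2 motifs may overlap and were counted apart. The ARE core was present for 4 of the 14 members called higher in exosomes, 2 of the 3 called lower (PSME1 and PSME4) and 7 of the 25 not called. A match describes the letters in the window and is not a measured site.

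Summed over the 47 members by function, proteasome mRNAs took 0.468 ± 0.0216% of gene reads in exosomes, beside 0.453 ± 0.0129% in cells (SD over 6 libraries of each). The libraries ranged from 0.444% to 0.505% in exosomes and from 0.437% to 0.473% in cells, so the compartments overlapped. With trimmed-mean (TMM) scaling over all 12 libraries, the same sum was 5047 ± 224 CPM in exosomes and 4233 ± 123 CPM in cells, without overlap. The members thus made up about the same part of the raw reads, and the gap in CPM arose with the scaling. In bulk RNA, fewer cells of a type and less RNA per cell cannot be told apart. The order of the members was much alike in both compartments, with a Spearman correlation of 0.821 between mean CPM in exosomes and in cells over 48 members that share libraries and transcript lengths.

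Levels of individual subunits were far from equal. Per kilobase of the principal transcript (the longest, where a gene has several), PSMA7, an alpha ring subunit, was the highest of the 14 constitutive 20S mRNAs in both compartments (477 CPM per kilobase in exosomes and 295 in cells). The lowest were PSMA5 in exosomes (19.6 CPM per kilobase) and PSMB2 in cells (8.55 CPM per kilobase). The lengths used were 3729 bases for PSMA5 and 2701 for PSMB2, against 996 for PSMA7, so these values depend on the transcript chosen. PSMB2 also ran from 3.83 to 41.4 CPM over the cell libraries. The span between highest and lowest was 24.3-fold in exosomes and 34.5-fold in cells, although each of these proteins stands in the core in equal number. Among the 6 ATPase mRNAs the span was narrower, 4.42-fold in exosomes and 3.3-fold in cells, and PSMC3 was highest in both, at 136 CPM per kilobase in exosomes and 80.9 in cells. With the length of all annotated exons in place of the principal transcript, PSMA7 and PSMC3 again ranked first in exosomes and in cells, and the lowest of the 20S mRNAs in exosomes was PSMA1 in place of PSMA5. The spans were then 28.6-fold in exosomes and 35.2-fold in cells for the 20S mRNAs, and 9.41-fold and 5.64-fold for the ATPases.

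The contrast of exosomes with cells over all 12 libraries asked which subunit mRNAs differed in TMM-scaled level between the 2 kinds of library. The kits differed as well. TMM factors were 0.921 to 0.933 in exosomes and 1.07 to 1.08 in cells. The scaling thus put every log2 value above that of the raw shares. Of the 48 members tested, 17 were higher in exosomes and 3 were lower (edgeR, Benjamini-Hochberg adjusted p under 0.05). This is 20 of 48, beside 37.1% of all 11811 genes tested. By direction, 17.6% of all genes were called higher and 19.5% lower. The median log2 fold change was 0.18 for the members and -0.15 for all genes tested, and 30 of 48 members had a positive value, beside 44% of all genes. The members differed in exon length from other genes, with a median principal transcript of 1566 bases against 3252 bases for all genes tested. The fold change was related to that length over all genes (Spearman -0.223, n = 11793) and less so over the members (-0.0852, n = 48). After a smooth trend on exon length and GC content was taken off, the medians were 0.37 for the members and -0.003 for all genes, and 19 members were called. These were not the same set. PSMA7, PSMB3, PSMB4, PSMB6, PSMD1 and PSME4 lost the call, and PSMB7, PSMB10 and PSMF1 were among those that gained it. The share of all genes called in that fit is not given here.

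Groups of 6 libraries did not overlap for 10 members higher in exosomes (10.1% of all genes tested) and 4 members lower (13.1%). Of these 14, 13 were also called. PSMC3, PSMC3IP, PSMD9 and PSME1 were called under all 21 alternative settings, and the other 16 called members lost the call under at least 1. Not every such loss is given below.

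**Figure D1:**
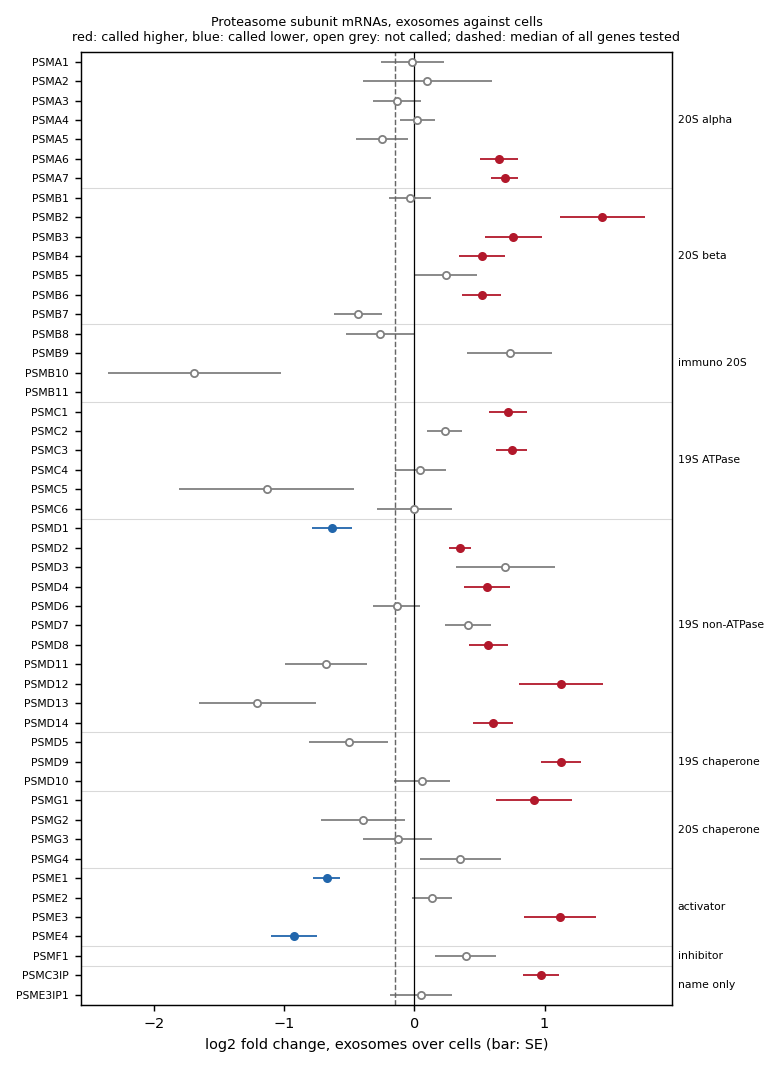
Log2 fold change of each member, exosomes over cells, with its standard error, ordered by role; filled red points were called higher, filled blue points lower, and the dashed line is the median of all genes tested (-0.15). The called members run from -0.93 for PSME4 to 1.44 for PSMB2, and PSMB11 has no point because it was not listed in exosomes.

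In the alpha ring, which gates the core, 2 of 7 mRNAs were higher in exosomes and 5 were not called. PSMA7 stood at 374, 470.5 and 539.7 CPM (lowest, median and highest of 6 libraries) in exosomes, against 266, 286 and 335 CPM in cells. Every exosome library lay above every cell library. Its log2 fold change was 0.69 (SE 0.103; edgeR, adjusted p = 0.000238), and less the trend on exon length and GC content it was 0.27 and did not pass (adjusted p = 0.0658). PSMA6 stood at 109, 134 and 156 CPM in exosomes, against 68.0, 85.5 and 96.9 CPM in cells, again without overlap (log2 0.65, SE 0.146; edgeR, adjusted p = 0.00412). The other 5 had log2 values from -0.25 for PSMA5 to 0.10 for PSMA2.

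In the beta ring of the constitutive core, 4 of 7 mRNAs were higher in exosomes. PSMB2, a beta subunit without a cutting site, had the highest fold change of the members. It stood at 29.4, 56.4 and 82.6 CPM in exosomes, against 3.83, 19.7 and 41.4 CPM in cells (log2 1.44, SE 0.326; edgeR, adjusted p = 0.0042). The ranges overlapped. In Con libraries alone the log2 value was 2.77, and in Ang libraries alone it was 0.14 (edgeR, adjusted p = 0.821). The difference between the labels in this contrast did not pass in edgeR (log2 -2.64, adjusted p = 0.373), whereas DESeq2 gave an adjusted p of 0.0124. Replicate 2 of the Con cells had 40 reads, 5.09-fold below the gene's median over cells. PSMB3, another subunit without a cutting site, stood at 36.7, 76.5 and 94.1 CPM in exosomes, against 39.6, 40.6 and 46.3 CPM in cells (log2 0.76, SE 0.216; edgeR, adjusted p = 0.0151). Less the trend on exon length and GC content its log2 value was 0.32 and did not pass (edgeR, adjusted p = 0.288). PSMB3 also lost the call in Con libraries alone (edgeR, adjusted p = 0.0533) and in Ang libraries alone (adjusted p = 0.172). PSMB4, which closes the ring late in assembly, had a log2 value of 0.52 (edgeR, adjusted p = 0.0333) and lost the call in 5 of the 12 fits that left out a library. These were the fits without replicate 1 or 3 of the Con cells, replicate 1 of the Ang cells, replicate 2 of the Con exosomes or replicate 1 of the Ang exosomes (adjusted p = 0.0502 to 0.0678).

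Of the 3 constitutive cutting subunits, 1 was called higher and 2 were not called. PSMB6, the caspase-like site, stood at 75.3, 104 and 134 CPM in exosomes, against 65.9, 70.0 and 74.2 CPM in cells (log2 0.52, SE 0.15; edgeR, adjusted p = 0.017), and the groups did not overlap. Less the trend on exon length and GC content its log2 value was 0.07 (adjusted p = 0.756). PSMB5, the chymotrypsin-like site and the main target of bortezomib, stood at 21.4, 52.4 and 60.4 CPM in exosomes, against 34.7, 38.1 and 43.1 CPM in cells, and did not pass (log2 0.24, SE 0.24; edgeR, adjusted p = 0.454). PSMB7, the trypsin-like site, stood at 38.8, 71.2 and 94.6 CPM in exosomes, against 89.0, 96.4 and 98.8 CPM in cells (log2 -0.43, SE 0.182; edgeR, adjusted p = 0.079). It passed without replicate 3 of the Con exosomes (adjusted p = 0.0484) or replicate 2 of the Ang exosomes (adjusted p = 0.0181), and with DESeq2 (adjusted p = 0.000491). Less the trend on exon length and GC content PSMB7 also passed (log2 -0.67, edgeR adjusted p = 0.0138).

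Immunoproteasome subunits replace the cutting subunits in immune cells and after interferon, and edgeR called none of the 3 tested between compartments, whereas DESeq2 called PSMB9 and PSMB10. PSMB8 stood at 13.2, 69.2 and 103 CPM in exosomes, against 70.1, 74.9 and 77.1 CPM in cells (log2 -0.26, SE 0.264; edgeR, adjusted p = 0.461). PSMB9 stood at 8.63, 20.7 and 34.9 CPM in exosomes, against 11.4, 12.2 and 16.2 CPM in cells (log2 0.73, SE 0.327; edgeR, adjusted p = 0.098), and it passed with DESeq2 (adjusted p = 0.0122) and, in edgeR, without replicate 1 of the Con exosomes (adjusted p = 0.0227). PSMB10 had few reads in exosomes, 1, 0 and 1 in Ang and 0, 4 and 8 in Con, against 63 to 132 in cells. Its log2 value was -1.69 (SE 0.663; edgeR, adjusted p = 0.063). It passed with DESeq2 (adjusted p = 0.018) and, in edgeR, without replicate 3 of the Con exosomes (adjusted p = 0.0223), with a replicate block (adjusted p = 0.049) and less the trend on exon length and GC content (adjusted p = 0.0186). A count of 0 allows up to 5.1 CPM of raw gene reads in replicate 2 of the Ang exosomes and 4.03 CPM in replicate 1 of the Con exosomes, with counting error alone. PSMB8 shares 20.6% of its exon length with genes on the other strand, PSMB9 among them, and PSMB10 shares 34.8% with a gene on its own strand, and how the authors counted such reads is not given in the sources used here. PSMB11, the subunit of the thymus, was not listed in exosomes and had 3, 1 and 4 reads in Ang cells and 0 in each Con cell library, too few to test. There a count of 0 allows up to 0.268 to 0.318 CPM.

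Set against its constitutive partner per length of the principal transcript, PSMB8 was the more abundant of its pair in cells and PSMB9 and PSMB10 the less abundant of theirs. PSMB8 over PSMB5 was 1.95 to 3.98 in Ang exosomes and 0.493 to 1.30 in Con exosomes, and 1.91 to 2.2 in Ang cells and 2.32 to 2.37 in Con cells. The groups thus did not overlap in either compartment, with Ang above Con in exosomes and below it in cells. The highest exosome ratio held 11 reads of PSMB5 (replicate 1 of Ang), and the lowest held 9 of PSMB8 (replicate 2 of Con). The ratios were not tested, and how many other gene pairs separate in this way was not counted. In Ang against Con, edgeR called neither gene in either compartment. PSMB9 over PSMB6 was 0.229 to 0.350 in Ang exosomes and 0.0947 to 0.245 in Con exosomes, and 0.167 to 0.236 in Ang cells and 0.183 to 0.261 in Con cells. PSMB10 over PSMB7 was at most 0.102 in any exosome library and at most 0.0953 in any cell library. With the length of all annotated exons, PSMB8 over PSMB5 in cells was 0.979 to 1.12 in Ang and 1.19 to 1.21 in Con, so that whether PSMB8 exceeded PSMB5 depended on the length used. Of 6 immune cell markers, CD68 alone had reads in exosomes and 4 had reads in cells; PTPRC was not listed in exosomes, and CD3E and LYZ were not listed in cells. Their summed raw level was 3.60 to 172 CPM in Ang exosomes and 15.3 to 86.5 in Con exosomes, and 14.2 to 71.9 CPM in Ang cells and 19.2 to 20.4 in Con cells; its part in these ratios was not tested.

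**Figure D2:**
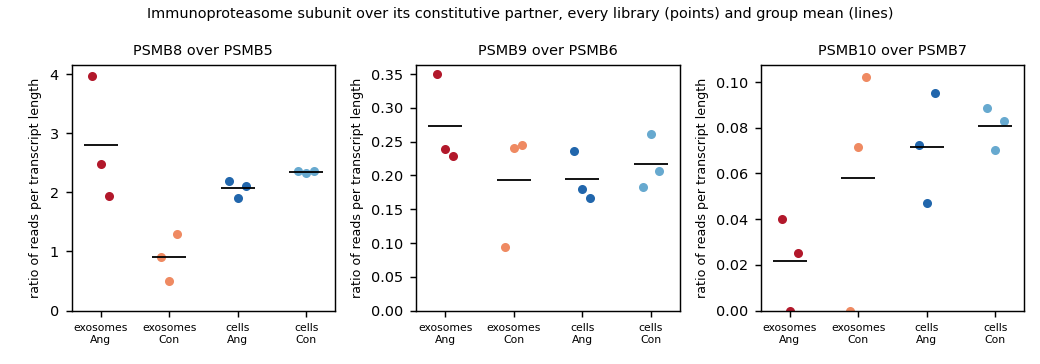
Reads per principal transcript length of each immunoproteasome subunit over those of its constitutive partner, for every library (points) with group means (lines) and Ang left of Con in each compartment. For PSMB8 over PSMB5 the 3 Ang exosome libraries lie at 1.95 or above and the 3 Con exosome libraries at 1.30 or below. The ratios were not tested.

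Among the 19S ATPases, which unfold the substrate, 2 of 6 mRNAs were higher in exosomes. PSMC3 stood at 176, 218 and 241 CPM in exosomes, against 123, 126 and 136 CPM in cells, without overlap (log2 0.75, SE 0.118; edgeR, adjusted p = 0.000377). PSMC1 stood at 139.8, 175 and 229.6 CPM in exosomes, against 97.8, 109.9 and 117 CPM in cells, without overlap (log2 0.72, SE 0.144; edgeR, adjusted p = 0.00201). PSMC1 shares 75.8% of its exon length with NRDE2 on the other strand, so its reads are uncertain. PSMC5 was uneven in exosomes, with 1, 86 and 3 reads in Ang libraries, and 6, 35 and 51 in those of Con, against 1077 to 1330 in cells. Its log2 value of -1.13 (SE 0.672; edgeR, adjusted p = 0.209) rested on replicate 2 of the Ang exosomes, without which it was -3.05 and passed (adjusted p = 0.000859). With all libraries kept, PSMC5 passed with a replicate block (log2 -1.96, edgeR adjusted p = 0.0368). It also passed with library weights in limma (log2 -2.30, adjusted p = 0.0185). PSMC2, PSMC4 and PSMC6 had log2 values of 0.23, 0.05 and -0.00.

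Among the 19S subunits that are not ATPases, 5 of 11 mRNAs were higher in exosomes and 1 was lower. PSMD12, a scaffold subunit of the lid, stood at 26.4, 70.6 and 97.9 CPM in exosomes, against 13.8, 33.7 and 45.8 CPM in cells (log2 1.13, SE 0.323; edgeR, adjusted p = 0.0159). Its ranges overlapped, and the call was lost with library weights in limma (adjusted p = 0.146). In Con libraries alone PSMD12 also lost the call (log2 0.75, edgeR adjusted p = 0.286). PSMD14, the deubiquitinase that strips ubiquitin from the substrate, stood at 92.1, 106 and 153 CPM in exosomes, against 66.6, 71.9 and 83.7 CPM in cells, without overlap (log2 0.60, SE 0.156; edgeR, adjusted p = 0.00915). The ubiquitin receptor PSMD4 (log2 0.56, SE 0.176), the lid subunit PSMD8 (log2 0.57, SE 0.149) and the base scaffold PSMD2 (log2 0.35, SE 0.0863) completed the 5, with edgeR adjusted p of 0.0255, 0.0102 and 0.00706. PSMD4 lost the call without replicate 2 or 3 of the Con exosomes or replicate 1 of the Ang exosomes (adjusted p = 0.0646, 0.0624 and 0.0537).

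PSMD1, the larger scaffold of the 19S base beside PSMD2, was lower in exosomes. It stood at 94.1, 119 and 155 CPM in exosomes, against 159.9, 191 and 221 CPM in cells, without overlap (log2 -0.63, SE 0.154; edgeR, adjusted p = 0.00666). Less the trend on exon length and GC content its log2 value was -0.25 and did not pass (adjusted p = 0.237). PSMD13, a lid subunit, had 2, 3 and 23 reads in Ang exosomes and 7, 26 and 33 in Con exosomes, against 524 to 690 in cells. Its groups did not overlap either, at 3.88, 24.1 and 49.6 CPM in exosomes against 50.2, 55.0 and 62.7 CPM in cells, and it missed the threshold (log2 -1.21, SE 0.449; edgeR, adjusted p = 0.0511). It passed without replicate 3 of the Ang exosomes (log2 -2.19; adjusted p = 0.00138) or replicate 3 of the Con exosomes (adjusted p = 0.0419). With all libraries kept, PSMD13 passed with a replicate block (log2 -1.63, edgeR adjusted p = 0.00972). It also passed with library weights in limma (adjusted p = 0.0204) and, narrowly, with no filter (edgeR, adjusted p = 0.04996).

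Of the chaperones that build the complex and leave it, PSMD9 and PSMG1 were higher in exosomes, and 5 of 7 were not called. PSMD9, which loads ATPases into the 19S base and whose upstream sequence is shown above, had 53, 55 and 67 reads in Ang exosomes and 68, 101 and 77 in Con exosomes. It stood at 97.9, 109 and 148 CPM in exosomes, against 49.1, 54.8 and 55.8 CPM in cells. All 6 exosome libraries lay above all 6 cell libraries, and the difference of 2.18-fold had the smallest p of the members (log2 1.12, SE 0.153; edgeR, adjusted p = 0.00012). PSMD9 shares 19.9% of its exon length with genes on its own strand. PSMG1, which pairs with PSMG2 to assemble the alpha ring, stood at 13.2, 20.8 and 31.1 CPM in exosomes, against 9.33, 10.8 and 15.1 CPM in cells (log2 0.92, SE 0.292; edgeR, adjusted p = 0.0259). It had 9 to 21 reads per exosome library and lost the call without replicate 1 of the Con cells (adjusted p = 0.0518), replicate 2 of the Ang cells (0.054), replicate 1 of the Con exosomes (0.0627) or replicate 1 of the Ang exosomes (0.0544). PSMG1 also lost it with cell libraries thinned to the exosome depth (log2 0.69, edgeR adjusted p = 0.148). The same held in Con libraries alone (edgeR, adjusted p = 0.110), in Ang libraries alone (0.209) and with library weights in limma (0.0749). Its partner PSMG2 had a log2 value of -0.40 (SE 0.323).

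Of the 4 activators, 1 was higher in exosomes, 2 were lower and 1 was not called. PSME1 and PSME2 form a mixed ring that interferon induces; PSME1 was called lower and PSME2 was not called, and the difference between the 2 genes was not tested. PSME1 stood at 148, 164 and 183 CPM in exosomes, against 247, 258 and 281 CPM in cells, without overlap (log2 -0.67, SE 0.104; edgeR, adjusted p = 0.000319). PSME2 stood at 87.3, 119.7 and 148 CPM in exosomes, against 104, 107 and 114 CPM in cells, and did not pass (log2 0.13, SE 0.153; edgeR, adjusted p = 0.522). PSME3, which forms a nuclear ring of its own, stood at 162, 185 and 255 CPM in exosomes, against 51.6, 81.1 and 159.9 CPM in cells (log2 1.12, SE 0.277; edgeR, adjusted p = 0.0072). Its groups did not overlap, although 1 cell library, replicate 3 of the Ang cells with 1811 reads, came close, and the call was lost with library weights in limma (adjusted p = 0.122). In Ang libraries alone PSME3 also lost the call (log2 0.91, edgeR adjusted p = 0.186). PSME4, the large nuclear activator, stood at 38.0, 52.0 and 77.6 CPM in exosomes, against 93.7, 106 and 118 CPM in cells, without overlap (log2 -0.93, SE 0.178; edgeR, adjusted p = 0.00151). Less the trend on exon length and GC content PSME4 did not pass (log2 -0.44; adjusted p = 0.0775).

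The inhibitor PSMF1, which binds the core and blocks activators, stood at 38.8, 92.5 and 156 CPM in exosomes, against 43.6, 77.4 and 87.2 CPM in cells, and did not pass (log2 0.40, SE 0.235; edgeR, adjusted p = 0.206). Less the trend on exon length and GC content PSMF1 was called higher (log2 0.72, edgeR adjusted p = 0.0359). Of the 2 genes that share only the name, PSMC3IP stood at 200.2, 283 and 313 CPM in exosomes, against 122, 135 and 149 CPM in cells, without overlap (log2 0.97, SE 0.138; edgeR, adjusted p = 0.000173). PSMC3IP shares 29.9% of its exon length with MLX on the other strand. PSME3IP1 did not pass (log2 0.05, SE 0.239).

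**Figure D3:**
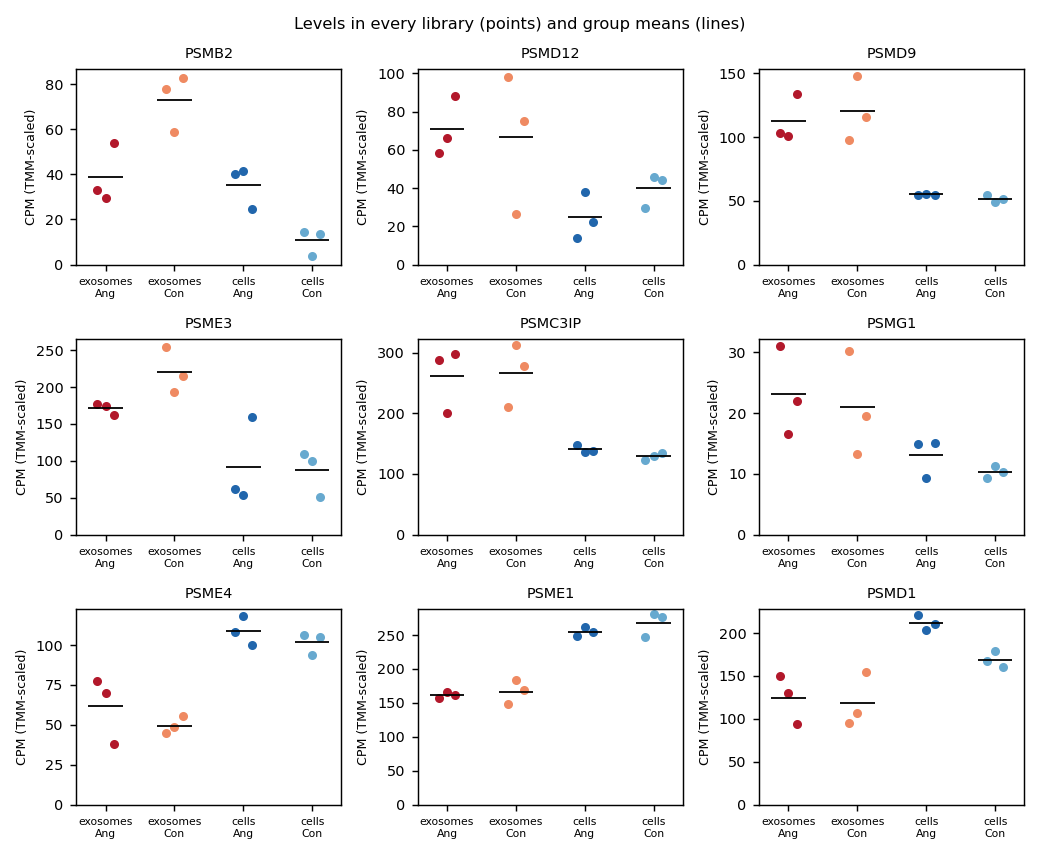
TMM-scaled CPM in every library (points) with group means (lines) for the 6 members highest and the 3 lowest by fold among those called between exosomes and cells, exosomes left of cells. PSMD9, PSMC3IP and PSME3 lie higher in all 6 exosome libraries than in any cell library, PSME4, PSME1 and PSMD1 lie lower, and the ranges of PSMB2, PSMD12 and PSMG1 overlap.

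Of the 32 genes of the wider pathway that are not members, 10 were higher in exosomes, 4 were lower and 18 were not called, with a median log2 of 0.10. This is 14 of 32, near the 37.1% of all genes called in this contrast (17.6% higher and 19.5% lower). UBB, which encodes ubiquitin, was higher (log2 1.13, SE 0.0677; edgeR, adjusted p = 1.05e-07), as was RPS27A, which encodes ubiquitin fused to a ribosomal protein (log2 0.59; edgeR, adjusted p = 0.000228). The ubiquitin-activating enzyme gene UBA6 was lower (log2 -1.48, SE 0.162; edgeR, adjusted p = 2.1e-05), and UBA1, which encodes the main activating enzyme, did not pass (log2 -0.12). VCP, the segregase that pulls substrates free, was lower (log2 -1.46, SE 0.315; edgeR, adjusted p = 0.00353). DDI2, the protease that activates NFE2L1, was lower (log2 -1.25, SE 0.247; edgeR, adjusted p = 0.00173), while MAFK, a small partner of NFE2L factors at AREs, was higher (log2 1.63, SE 0.334; edgeR, adjusted p = 0.00228). NFE2L1 itself did not pass (log2 -0.34, SE 0.171). In Ang against Con, in exosomes and in cells, edgeR called 0 of the 32, 0 passed at an unadjusted p under 0.05, and DESeq2 called 0.

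The Ang cells were compared with the Con cells to ask whether subunit mRNAs differed with the label. No member was called (0 of 48), and none of the 13331 genes tested was (0%; edgeR, smallest adjusted p of a member 0.781). At an unadjusted p under 0.05, 5 members passed, beside 6.12% of all genes, and all 5 were higher in Ang, beside 2.81% of all genes. DESeq2 called 1 member, PSMD1 (adjusted p = 0.0491), beside 0.45% of all genes. The members' median log2 fold change was 0.07, against -0.0008 for all genes tested, and 33 of 48 were positive, beside 49.8% of all genes. The 3 Ang cell libraries lay wholly above the 3 Con cell libraries for 11 members (7.01% of all genes) and wholly below for 2 (6.89%).

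The summed share of the 47 members was 0.463 ± 0.00863% of gene reads in Ang cells and 0.442 ± 0.00452% in Con cells (SD, n = 3 each). The Ang cell libraries ranged from 0.456% to 0.473% and the Con cell libraries from 0.437% to 0.445%, without overlap. By role, all median log2 values of the 20S rings, the 19S ATPases, the other 19S subunits and the chaperones lay between 0.05 and 0.10. The 4 activators had a median of 0.03, with 2 above 0 and 2 below. The 3 immunoproteasome subunits tested were all below 0, with a median of -0.07, and the inhibitor PSMF1 lay at -0.25. Neither the summed share nor these medians were tested, and all members share the same libraries.

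PSMD1, the base scaffold, had 2173, 2221 and 2382 reads in Ang cells, against 1685, 1865 and 1920 in Con cells. All 3 Ang cell libraries were higher in CPM, with a log2 fold change of 0.32 (SE 0.0654; edgeR, adjusted p = 0.781). PSMA7 had 2940, 3656 and 3635 reads in Ang cells, against 2730, 2775 and 3270 in Con cells (log2 0.23, SE 0.0543; edgeR, adjusted p = 0.781). PSMB2 had 395, 451 and 281 reads in Ang cells, against 147, 40 and 165 in Con cells. That was the largest fold change of the members (log2 1.72, SE 0.515; edgeR, adjusted p = 0.795), and replicate 2 of the Con cells, with 40 reads, was 5.09-fold below the gene's median over cells. Without that library the log2 value was 1.32 (adjusted p = 0.712). PSMD12 was the lowest (log2 -0.70), with 135, 414 and 253 reads in Ang cells and 297, 478 and 531 in Con cells.

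The Ang exosomes were compared with the Con exosomes in the same way. None of 47 members was called, beside 1 of 8327 genes tested (0.012%), and the smallest adjusted p of a member was 0.999 (edgeR). No member passed at an unadjusted p under 0.05, beside 3.79% of all genes, and DESeq2 called none, beside 0.192%. The median log2 was -0.02 for the members and -0.002 for all genes. The 3 libraries of each label did not overlap for 1 member higher in Ang (5.18% of all genes) and 3 lower (5.6%), which is near the background. The summed share was 0.463 ± 0.0165% in Ang exosomes and 0.474 ± 0.0285% in Con exosomes (SD, n = 3 each), with overlapping ranges.

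PSMB8, the member higher in Ang exosomes without overlap, had 38, 56 and 49 reads in Ang exosomes, against 33, 9 and 43 in Con exosomes (log2 1.13, SE 0.519; edgeR, adjusted p = 0.999). Replicate 2 of the Con exosomes was 5.28-fold below the gene's median over exosomes, and without it the log2 value was 0.70. PSMB2 had 17, 16 and 27 reads in Ang exosomes, against 54, 40 and 55 in Con exosomes (log2 -0.90, SE 0.407; edgeR, adjusted p = 0.999). PSMF1 had 20, 50 and 40 reads in Ang exosomes, against 92, 106 and 62 in Con exosomes (log2 -0.84, SE 0.388; edgeR, adjusted p = 0.999).

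**Figure D4:**
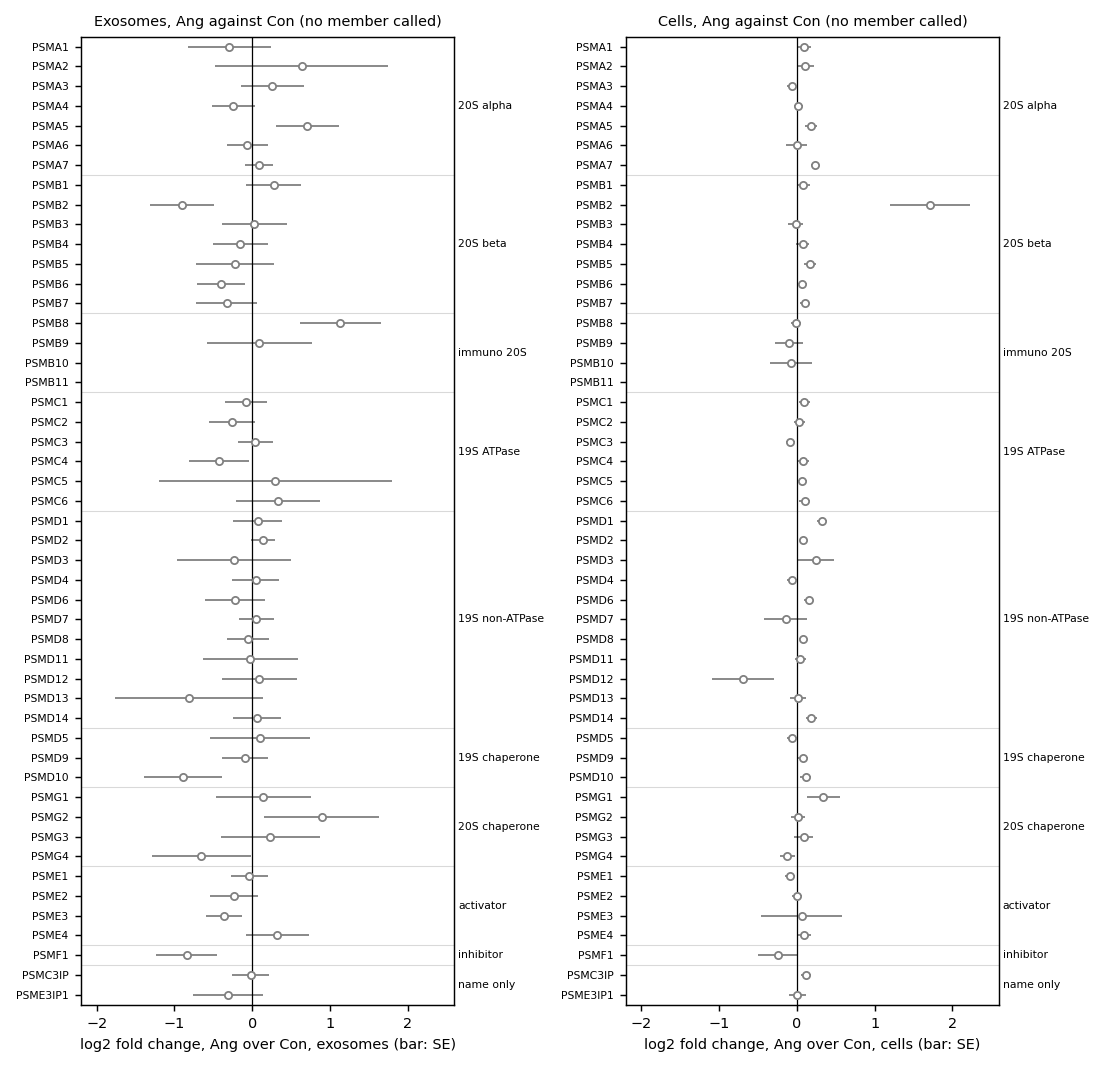
Log2 fold change of each member, Ang over Con, with its standard error, in exosomes (left) and cells (right), ordered by role; no member was called in either. Standard errors are wider in exosomes, and PSMB2 lies at -0.90 in exosomes and at 1.72 in cells.

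The fit of 12 libraries also tested whether the Ang against Con difference depended on the compartment. No member passed (0 of 48), beside 3 of 11811 genes (0.0254%). At an unadjusted p under 0.05, 2 members passed, beside 8.22% of all genes, both below 0, beside 4.62% of all genes, and DESeq2 called 1 member, PSMB2 (adjusted p = 0.0124), beside 3.12% of all genes. PSMB2 had the largest difference, as Ang lay below Con in exosomes and above it in cells (log2 -2.64, SE 0.647; edgeR, adjusted p = 0.373). The other was PSMD10, the ankyrin repeat chaperone also called gankyrin (log2 -1.02, SE 0.429; edgeR, adjusted p = 0.574). PSMB8 had a value of 1.14 (SE 0.528; edgeR, adjusted p = 0.609).

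Losses in single libraries touched 4 of the members with a median of 40 reads or more. Members under that median were not counted, such as PSMD11, with 10 reads in replicate 2 of the Con exosomes and a median of 38.5. Among members whose median was 40 reads or more, 3 of 30 in exosomes and 1 of 48 in cells (PSMB2, given above) had a library over 4-fold under the median, beside 11.0% of all such genes in exosomes and 2.58% in cells. PSMA2, an alpha ring subunit, had 0 reads in replicate 2 of the Con exosomes and 23 to 59 in the other exosome libraries; a count of 0 there allows up to 4.05 CPM of raw gene reads. PSMD3, a lid scaffold subunit, had 13 reads in replicate 2 of the Ang exosomes, 7.94-fold below its median, and 94 to 143 in the other exosome libraries. PSMB8 was the other. Leaving these 4 members out, an alternative chosen after seeing the data, 19 of 44 were called between exosomes and cells.

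**Figure D5:**
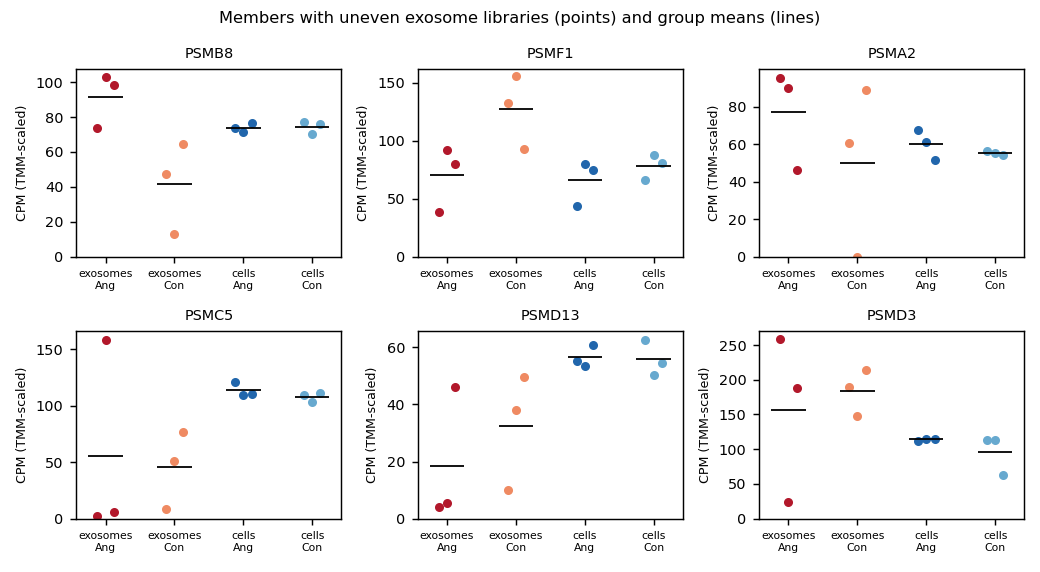
TMM-scaled CPM in every library (points) with group means (lines) for 6 members whose exosome libraries were uneven, exosomes left of cells. Cell libraries of PSMC5 and PSMD13 lie close together, whereas their exosome libraries run from near 0 to 158 CPM and 49.6 CPM.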

How the data were processed

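The authors deposited whole-number read counts per Ensembl gene for each library, per the file headers, beside counts of back-splice junction reads for circular RNAs. The submitters' processing notes name GRCh38, HISAT2 and StringTie; counting step, strand use and annotation release: not given in the sources used here. Gene positions and exon overlaps came from GENCODE release 29, and sequences from RefSeq. Groups were taken from the sample labels.

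Counts were tested with edgeR 4.0.16 in R 4.3.3 (quasi-likelihood F test, robust spread, TMM scaling, filterByExpr, minimum count 10, minimum total 15). Tests were two-sided, with Benjamini-Hochberg adjustment over all genes tested and a threshold of 0.05. Each compartment's 6 libraries gave Ang against Con. Exosomes against cells, and the difference between the compartments in Ang against Con, came from 1 fit of the 12 libraries and genes listed in both. The standard error is the log2 fold change over the square root of F. CPM per library carries the TMM factors of that fit. Intervals for counts of 0 use 3 reads and cover counting error only. Alternatives were DESeq2 1.42.0, its size factors, no filter, limma 3.58.1 with library weights, a replicate block, 1 label only, thinned cell libraries, a trend on exon length and GC content, and each library left out. The scripts were tested on simulated data with known changes.

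Members and lists were chosen with earlier results of these data known. Values in every library were given for the cutting subunits, the activators and PSMF1, up to 6 highest and 6 lowest called members by fold between exosomes and cells, the 3 members with the smallest p in each comparison of Ang with Con and between compartments, and members at 0 in a group; of the wider pathway, up to 6 called genes were selected, some not reported here, beside RPS27A, UBA1 and NFE2L1, chosen after their values were seen, as were the printed upstream sequences and the uneven members. Small RNAs were not analysed here.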

Additional observations from a re-analysis of the deposited data

Results flagged for a closer look

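PSMB2 was the member whose Ang against Con difference was opposite in the 2 compartments without overlap between the libraries of the labels. Ang lay below Con in exosomes (17, 16 and 27 reads against 54, 40 and 55) and above Con in cells (395, 451 and 281 reads against 147, 40 and 165). The difference between these changes was log2 -2.64 (edgeR, adjusted p = 0.373), which did not pass, and DESeq2 gave an adjusted p of 0.0124.

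The deposited junction counts of circular RNAs were not used in the comparisons and hold reads within member genes, with no control library to set them against. In exosomes, 4 of 939 listed circles lay in 4 member loci, with 25 junction reads in all, and in cells 10 of 5179 lay in 7 member loci, with 114. A circle in PSMA7 (chromosome 20, 62139075 to 62140944) had reads in all 6 cell libraries, with 8, 5 and 4 in Ang and 7, 5 and 7 in Con, and was not listed in exosomes. A circle in PSME3IP1 (chromosome 16, 57164001 to 57173869) had 46 reads over 4 cell libraries and 11 reads in 1 exosome library, replicate 3 of Ang. A circle in PSMD3 (chromosome 17, 39984294 to 39986712) had 10 reads, all in replicate 2 of the Ang exosomes, the library in which the PSMD3 mRNA had 13 reads.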

How the results depend on the processing

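Of 20 members called between exosomes and cells, 4 were called under every alternative run. The count was 13 with Con libraries only and 9 with Ang libraries only, fits of 6 libraries, and 18 to 23 with each library left out. Other settings gave 18 to 25. The 25 of 48 members called with DESeq2 stand beside 48.4% of all genes, and the 20 of the main fit beside 37.1%. Shares of all genes called under the other settings are not given here, so those counts have no background beside them. The labels do not state whether their replicate numbers pair the libraries. Correlations of same-numbered deviations ran from -0.0438 to 0.0176 and cannot decide it, because noise of single libraries can hide pairing. With a replicate block 22 members were called, 15 higher and 7 lower, and library weights in limma gave 13 higher and 5 lower. With DESeq2, 1 member was called in Ang against Con in cells and 1 for the difference between compartments; edgeR's counts there, 0 with all libraries, were also 0 with each library left out, as was that of Ang against Con in exosomes; DESeq2 was not repeated with libraries left out. Only part of the members were followed gene by gene through all alternatives. Among these, the log2 value changed sign for PSMB8 with Ang libraries only (0.32). It also did for PSMB5 less the trend on exon length and GC content (-0.063). The third was PSME2 without replicate 3 of the Ang exosomes (-0.0087, against at most 0.20 with another library left out). None of the 3 was called. Outside these, DESeq2 gave 0.019 for PSMA1 (edgeR -0.017) and 0.032 for PSMC6 (edgeR -0.0007), and neither was called. The cause was not tested. DESeq2 size factors moved no call. Exosome depth, 9 to 21 reads per library for PSMG1 and 0 to 8 for PSMB10, limits these members.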
